A study of Homo sapiens with 16 samples.

Results

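H3K27ac peaks of A2780 cells with the hairpin shMBD3.232 were compared with those of untransduced A2780 cells. The peaks on the autosomes were merged wherever a peak of each list shared at least 1 bp, which gave 29676 regions. All 8 peak lists of the series merge into 58336 regions in the same way, and A2780 cells with the other *MBD3* hairpin, shMBD3.26, give 32860 regions against the same A2780 list. A2780 is a cPt-sensitive line of human epithelial ovarian cancer (EOC) derived from an endometrioid adenocarcinoma. The reference cells carried no vector and had no treatment. The shMBD3.232 cells were A2780 cells made competent for Tet-inducible expression and transduced with a lentiviral LT3GEN vector, in which doxycycline switches on the hairpin together with GFP. They were selected with G418, kept under knockdown for 1 week and sorted for GFP before ChIP. Tet competence, transduction, selection, doxycycline and sorting therefore differ between the lists together with *MBD3*. The paper's methods also give a larger number of cells collected for each knockdown hairpin than for ChIP in general. The parts of these differences cannot be told apart. Cells with a control hairpin were not analysed here, and the lists do not measure MBD3 itself. The paper set both hairpins against a control hairpin by average H3K27ac signal. It reported mild global effects, with gain or loss at selected loci. Its methods also describe western blots that checked the knockdown.

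H3K27ac is an acetylated lysine of histone H3 that marks active promoters and enhancers, and wide stretches of it often lie over groups of neighboring enhancers. MBD3 is a subunit of the NuRD complex, which carries histone deacetylases and a nucleosome remodeling enzyme. It holds the deacetylase and the remodeling parts of the complex together. A list of H3K27ac peaks with less MBD3 shows where acetylated stretches were listed, and how wide they were, when this deacetylase complex was targeted. The hairpin is among several differences between the knockdown cells and the reference cells, as given above. Its guide is shown with the seed, bases 2 to 8, in capitals.
shMBD3.232: tTGCTCATcagcatcttgcccg
It has 22 bases, 12 of them G or C.

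Each condition had 1 library, made from mononucleosomes with a *D. melanogaster* spike-in of 5%. The lists give the start and end of each peak and no height, so no difference was tested and depth is unknown. A region without a listed peak may still carry acetylation below the threshold of the peak caller. Shares of regions are given with 95% Wilson intervals in parentheses, which reflect counting error alone, not the variation among cultures. Chromosomes 20, 21 and 22 had no peak in these lists. On chromosome 1 the last A2780 peak ended at position 197172000 and the last shMBD3.232 peak at 197171800, and on chromosomes 1 to 12 the lists stop short of the ends of the human chromosomes, so these parts are outside all counts. The last positions on these 12 chromosomes are close to the lengths of the mouse chromosomes with the same numbers. Boundaries lie on a 200 bp grid and peaks of a list at least 1000 bp apart, a layout that MACS2, the caller named in the study's methods, does not give by itself. How the listed boundaries were set is not given in the sources used here, and widths, gaps, fusions and splits below are those of the lists.

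The shMBD3.232 list was shorter and its peaks were wider. It held 18936 autosomal peaks against 27932 in A2780, or 67.8%, while its covered length of 78.9 Mb was 81.6% of the 96.7 Mb in A2780. The median peak was 2600 bp wide with the hairpin (quartiles 1400 and 5000 bp) and 2200 bp in A2780 (1000 and 4200 bp). The difference in number lay mainly with narrow peaks. Of peaks up to 1 kb, shMBD3.232 had 3790 and A2780 8128, or 46.6% as many. Of peaks over 10 kb it had 1366 against 1504, or 90.8%. The shMBD3.26 list had another make-up, with 85.2% as many peaks up to 1 kb and 70.6% as many peaks over 10 kb as A2780, although it covered a similar length, 76.5 Mb.

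A region was called lost when only A2780 had a peak there, gained when only shMBD3.232 had one, and shared when both did. Lost regions numbered 11978, or 40.4% of all regions (39.8 to 40.9), and gained regions 3240, or 10.9% (10.6 to 11.3). Shared regions made up the other 14458, or 48.7%. Most of what was lost or gained was narrow. The median width was 1000 bp for lost and 800 bp for gained regions, against 4400 bp for shared regions. Listed acetylation decreased by 16.6 Mb through lost regions, and gained regions added 4.18 Mb. As the A2780 list was the longer one, the excess of lost regions is not separate from the lengths of the lists.

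Shared regions were classed by their peaks. In 12481 of them, 1 A2780 peak met 1 shMBD3.232 peak. Such a region was called widened when the shMBD3.232 peak was at least 1.5 times as wide and at least 400 bp wider, and narrowed in the reverse case. Narrowed regions numbered 2985, or 10.1% of all regions (9.72 to 10.4), and widened regions 1419, or 4.78% (4.55 to 5.03). A further 8077, or 27.2%, were neither. A region in which 1 shMBD3.232 peak spanned several A2780 peaks was called fused, and the reverse was called split. There were 931 fused regions, 3.14% of all (2.95 to 3.34), and 781 split regions, 2.63% (2.46 to 2.82). Both lists had several peaks in 265 regions, or 0.893%. The covered length decreased by 6.72 Mb in narrowed regions and was 2.96 Mb larger in widened regions. It was 1.84 Mb larger in fused regions and decreased by 2.11 Mb in split regions. The net difference between the lists was thus made mostly of lost and narrowed regions.

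The classes separated by region width, which is in part built into them. The width of a region is the span of all its peaks. A lost or gained region is 1 peak, whereas a fused or split region holds several peaks and a gap. Among the 9031 regions up to 1 kb, 73.2% (72.3 to 74.1) were lost and 20.5% (19.7 to 21.4) gained, so few of the narrowest regions were listed in both. The lost share was 53.1% over 1 to 2 kb, 24.4% over 2 to 5 kb, 5.56% over 5 to 10 kb and 2.16% (1.62 to 2.88) among the 2084 regions over 10 kb. The gained share went down in the same order, from 14.5% over 1 to 2 kb to 5.81%, 1.53% and 0.384%. Fused and split regions lay at the other end. Of regions over 10 kb, 23.9% (22.1 to 25.7) were fused and 19.2% (17.6 to 21.0) split, against 8.35% and 7.42% over 5 to 10 kb and 0.834% and 0.683% over 2 to 5 kb. Peaks of a list lie at least 1000 bp apart, so a region up to 1 kb could be neither. Narrowed regions were most frequent in the middle classes, with 17.0% over 2 to 5 kb and 17.5% over 5 to 10 kb, and widened regions with 8.22% and 7.28%. In every width class the lost share exceeded the gained share, and the narrowed share exceeded the widened share, by more than their intervals. These intervals cover counting error alone and take neighboring regions as independent. The excess of lost regions is again not separate from the lengths of the lists.

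**Figure D1:**
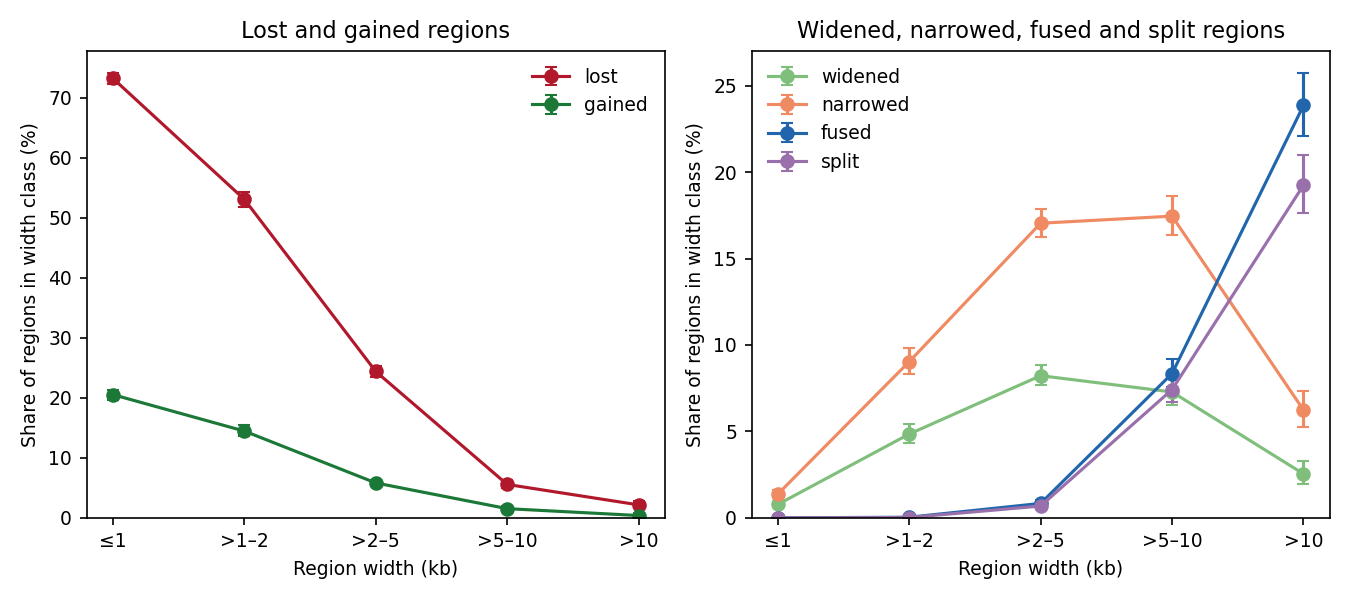
Share of regions (%, y axis) in each class by region width (kb, x axis) for shMBD3.232 against A2780, with lost and gained regions on the left and widened, narrowed, fused and split regions on the right. Points are shares and bars 95% Wilson intervals, and lost regions go from 73.2% of the narrowest to 2.16% of the widest class while fused regions reach 23.9% of the widest. Region width is the span of all peaks of a region, so fused and split regions are wide in part by definition.

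Counted by peaks, 42.9% (42.3 to 43.5) of A2780 peaks had no partner in the shMBD3.232 list, and 17.1% (16.6 to 17.7) of shMBD3.232 peaks had none in A2780. Of A2780 peaks up to 1 kb, 81.3% were without a partner, and of those over 10 kb 2.99% (2.24 to 3.98), or 45 of 1504. The same shares with shMBD3.232 peaks were 48.9% and 0.586%, or 8 peaks over 10 kb. For shMBD3.26, which shares the A2780 list, 40.4% of A2780 peaks and 25.4% of knockdown peaks had no partner. Lost regions made up 34.3% and gained regions 18.0% of the regions of that comparison, widened regions 4.28% and narrowed regions 11.4%. Among A2780 peaks over 10 kb, the share without a partner was higher with shMBD3.232 than with shMBD3.26. Only 4 of the 1504 A2780 peaks over 10 kb, or 0.266% (0.104 to 0.682), had no shMBD3.26 peak, and the widest of them was 13800 bp, whereas the widest A2780 peak without a shMBD3.232 peak was 29400 bp. The intervals of these shares do not overlap, but with 1 library per hairpin the difference has no replicate check. Both shares are taken on the same A2780 peaks, and 33 of the 45 had another such region within 1 Mb. Among knockdown peaks over 10 kb the order was the other way, with overlapping intervals. There, 13 of 1062 shMBD3.26 peaks, or 1.22% (0.717 to 2.08), had no partner, against 0.586% (0.297 to 1.15) with shMBD3.232.

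**Figure D2:**
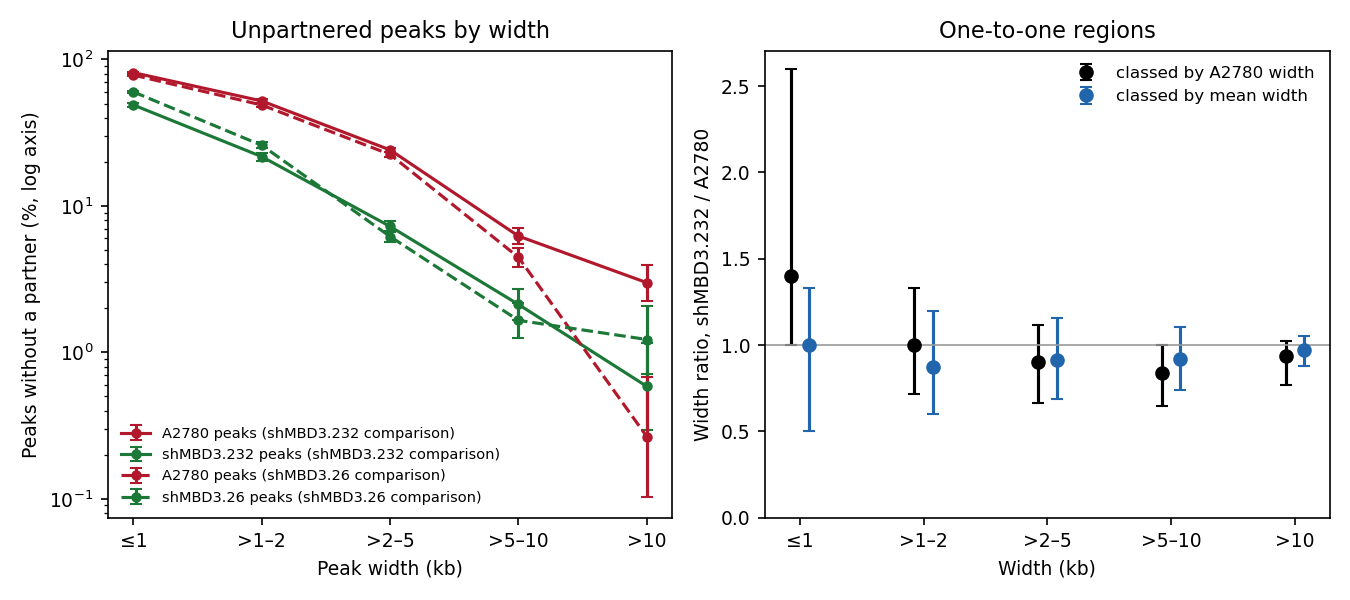
Left, peaks without a partner (%, log axis) by peak width (kb) for A2780 and knockdown peaks in the shMBD3.232 comparison (solid lines) and the shMBD3.26 comparison (dashed lines), with 95% Wilson intervals. Right, median width ratio of one-to-one regions with quartiles as bars, classed by the A2780 peak or by the mean of both peaks; the medians classed by mean width lie between 0.875 and 1.

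Where 1 peak met 1 peak, the shMBD3.232 peak was slightly narrower. The median width ratio was 0.917 (quartiles 0.686 and 1.15) and the median difference -200 bp, which is 1 step of the 200 bp grid on which the lists are drawn. The shMBD3.232 peak was narrower in 56.4% of the 12481 regions, wider in 35.4% and equally wide in 8.24%. Classed by the width of the A2780 peak, the median ratio was 1.40 up to 1 kb, 1.00 over 1 to 2 kb, 0.905 over 2 to 5 kb, 0.837 over 5 to 10 kb and 0.938 over 10 kb. This order is tied to the choice of A2780 as the measure of width. Classed by the mean of both peaks, the medians were 1.00, 0.875, 0.917, 0.921 and 0.974, so the wider ratio of the narrowest A2780 peaks was not seen on that scale.

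The boundaries moved by little and often in the same direction on both sides of the wider changes. The median shift of a boundary was 400 bp over all one-to-one regions and 800 bp in widened and in narrowed regions. Both boundaries lay further out with shMBD3.232 in 1611 regions (12.9%), while both lay further in for 3123. In 3963, or 31.8%, the peak was displaced to 1 side, with 1 boundary out and the other in, and in 403 both boundaries were the same. Of the widened regions, 58.8% (56.3 to 61.4) were extended at both ends, and of the narrowed regions 64.1% (62.4 to 65.8) were trimmed at both ends. Both these shares and the larger median shift are tied to the choice of these regions by their difference in width. In 20.8% of widened and 20.7% of narrowed regions only 1 boundary differed.

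Fusion bridged short gaps. Of the 27913 gaps between neighboring A2780 peaks, 1496, or 5.36%, were spanned by 1 shMBD3.232 peak. The share was 34.5% (32.2 to 36.8) for gaps of 1000 bp, the smallest in the lists, 25.4% for 1200 to 1400 bp and 14.4% for 1600 to 2000 bp. It was 0.627% for 5200 to 10000 bp, and the widest bridged gap was 11200 bp. In the other direction, 1238 of 18917 gaps of the shMBD3.232 list, or 6.54%, lay inside 1 A2780 peak, with 48.5% of those of 1000 bp. Most fused regions joined 2 A2780 peaks (780 of 931) and 111 joined 3, while 688 of the 781 split regions fell apart into 2 peaks. Fused regions outnumbered split regions with shMBD3.232, whereas shMBD3.26 gave 612 fused regions, or 1.86%, and 1139 split regions, or 3.47%. The order with shMBD3.232 was not kept under every setting. With both lists reduced to their 18936 widest peaks there were 646 fused and 803 split regions, and with peaks up to 3 kb apart joined beforehand 313 and 576.

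The changes were spread over all 19 autosomes with peaks. The lost share lay between 34.3% (32.5 to 36.2) on chromosome 19 and 47.7% (43.6 to 51.7) on chromosome 18, with the other chromosomes between 38.5% and 43.8%. Chromosome 18 also had the lowest gained share, 8.49% (6.48 to 11.1), and its shMBD3.232 peaks numbered 58.8% of those in A2780, the lowest of the 19. On chromosome 19 this was 75.9%, the highest, and 4.42% of regions were split, again the highest. The highest gained share was 13.0% (11.6 to 14.7) on chromosome 16. The order changed with width. Among regions over 2 kb, the lost share was highest on chromosome 5 with 20.6% (17.7 to 23.8), against 15.9% over all autosomes, and lowest on chromosome 19 with 13.4% (11.8 to 15.3). The gained share of these regions was highest on chromosome 2 with 6.84% (5.33 to 8.74) and lowest on chromosome 9 with 1.31% (0.602 to 2.83), against 3.83% over all. The covered length relative to A2780 was highest on chromosome 2, at 89.5%, and lowest on chromosome 9, at 76.0%. Fused regions were most frequent on chromosome 4 with 4.28% (3.27 to 5.58), where split regions were few, 1.34%.

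**Figure D3:**
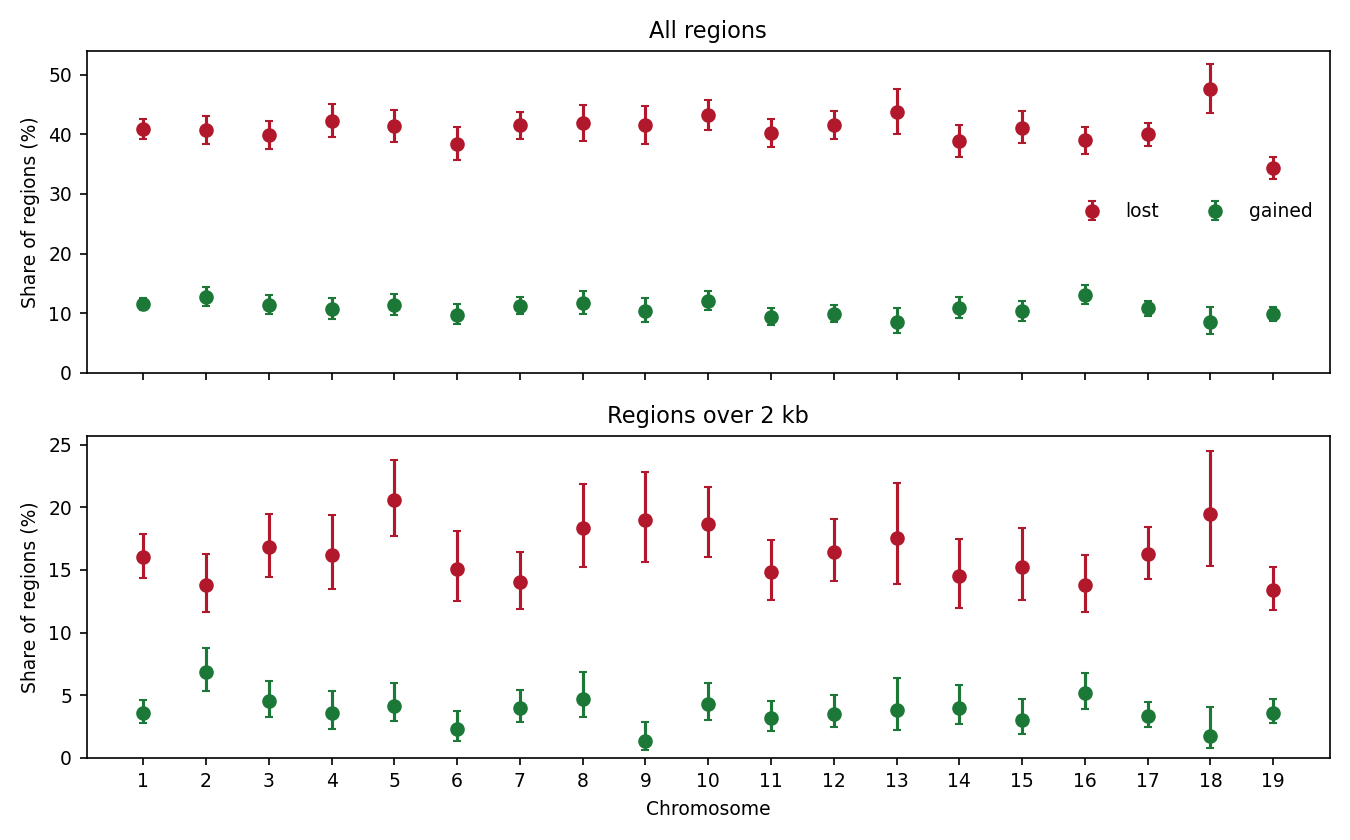
Lost and gained shares of regions (%, y axis) on each autosome with peaks (x axis) for shMBD3.232 against A2780, over all regions (top) and over regions above 2 kb (bottom). Points are shares and bars 95% Wilson intervals; over all regions chromosome 18 has the highest lost share, 47.7%, and chromosome 19 the lowest, 34.3%, and above 2 kb chromosome 2 has the highest gained share, 6.84%.

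In steps of 500 kb, listed acetylation was lower with shMBD3.232 in 2411 of 3048 intervals, or 79.1%, and higher in 560, or 18.4%. The median difference was -2.80 kb. The 50 highest of the 560 higher intervals held 58.6% of the 3.19 Mb added. The 50 lowest of the 2411 lower intervals held 15.2% of the length given up (-20.99 Mb in all). These shares have unlike bases and cannot be set against each other. With shMBD3.26 they were 53.8% and 14.1%. The lowest interval was chr1:102000001-102500000, where A2780 peaks covered 172.6 kb and shMBD3.232 peaks 0.600 kb. It held 25 lost and 2 narrowed regions. In chr9:81000001-81500000 the covered length was 124 kb in A2780 and 1.80 kb with the hairpin, and in chr12:47500001-48000000 it was 87.8 kb and 0. The highest interval was chr12:85500001-86000000 with 56.6 kb in A2780 and 131 kb with shMBD3.232, followed by chr2:50000001-50500000 with 231.2 and 302.2 kb. In chr2:177500001-178000000 the length was 5.20 kb in A2780 and 71.4 kb with the hairpin, through 10 gained and 3 widened regions.

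Lost regions lay next to each other more often than gained ones in these lists, where they were also more numerous, and runs were not tested against chance. Of the gained regions, 74.1% had no gained neighbor, and the longest run of consecutive gained regions had 8. Of the lost regions, 34.7% had no lost neighbor, and 242 runs of 5 or more held 1720 of them, or 14.4%. The longest run, 27 lost regions at chr12:47053001-47771800, had 143.4 kb of A2780 peaks and no shMBD3.232 peak over 718.8 kb. The shMBD3.26 list had 16 peaks with 49.2 kb there and the A2780cis list, from the cPt-resistant derivative of A2780, 14 peaks with 161.2 kb. A run of 24 lost regions at chr4:26868601-27861400 had 115.4 kb of A2780 peaks, 22.6 kb in shMBD3.26 and no peak in A2780cis. Another run of 24, at chr3:105910601-106960600, had 108 kb in A2780, 19.0 kb in shMBD3.26 and 245 kb in A2780cis. The 23 lost regions at chr9:81057801-82373400, named for their covered length, had 122.6 kb in A2780, 58.8 kb in shMBD3.26 and 0.400 kb in A2780cis. The longest gained runs held fewer regions and covered less. A run of 5 at chr2:177819201-177897600 had 36.8 kb of shMBD3.232 peaks, 18.8 kb in shMBD3.26 and no peak in any of the other 6 lists. The 8 gained regions at chr6:93969001-94123200 covered 17.6 kb, with 1.60 kb in shMBD3.26. The second longest run, 6 gained regions at chr6:30293601-30747400, stood apart from these. Its shMBD3.232 peaks covered 6.40 kb, whereas shMBD3.26 had 23 peaks with 100.2 kb there, A2780cis 4 peaks with 9.60 kb and CAOV4 1 peak with 0.400 kb.

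**Figure D4:**
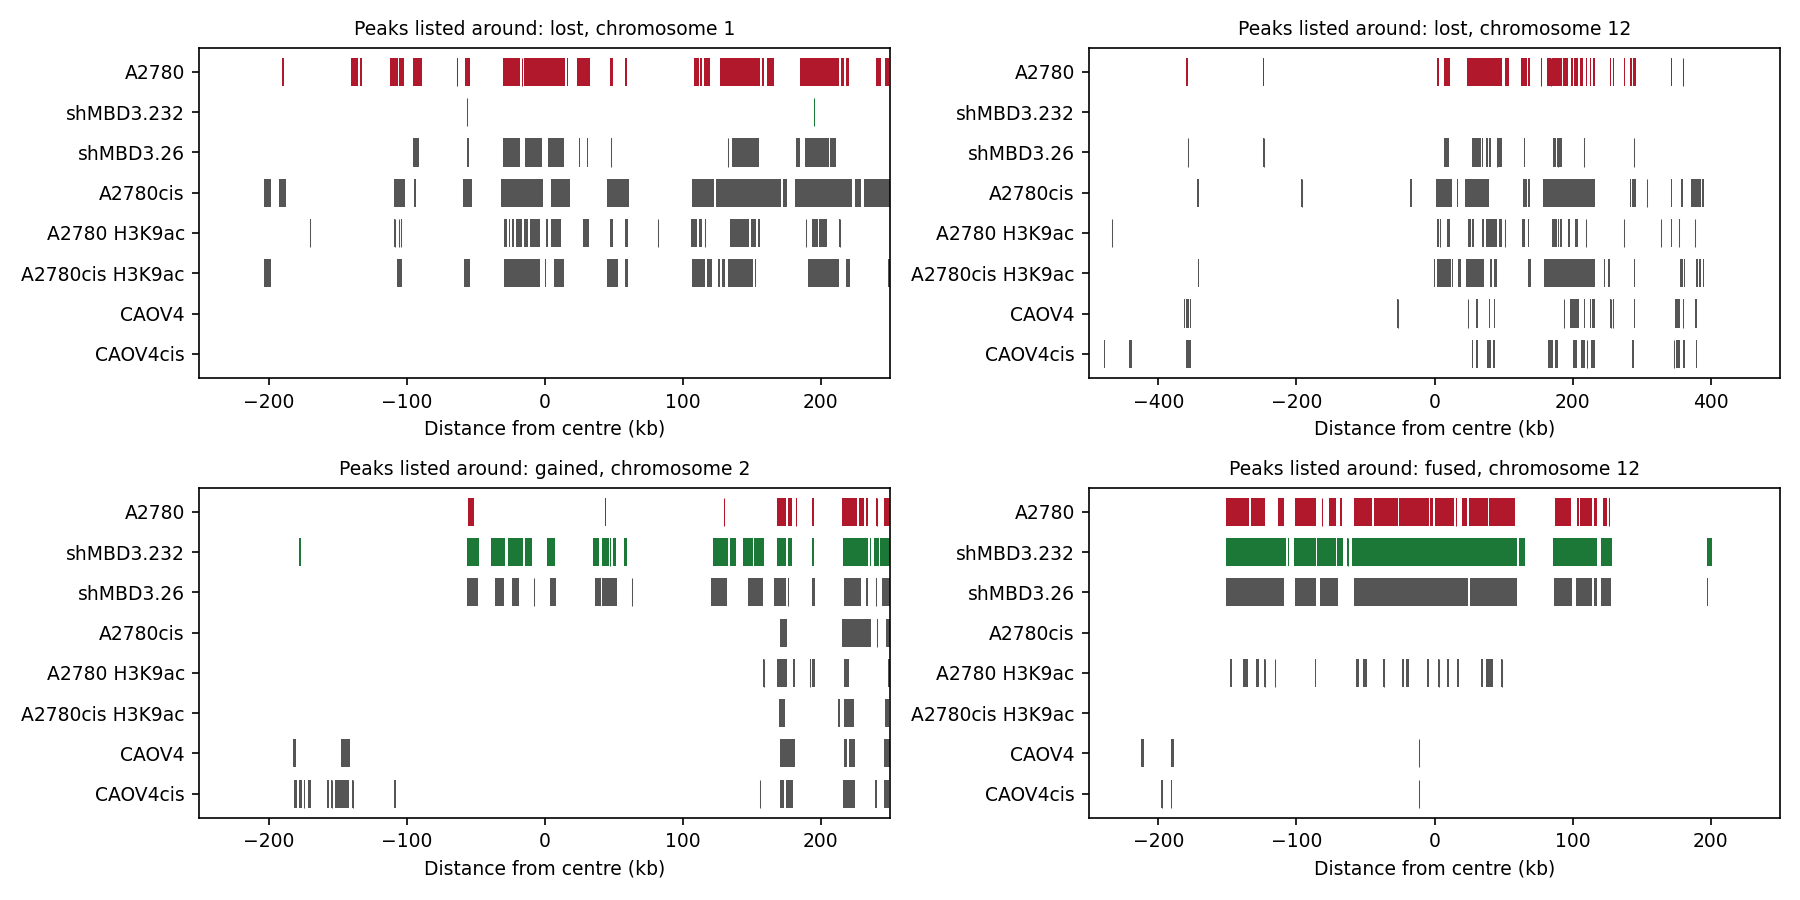
Peaks of all 8 lists (rows; peaks under 1 kb drawn as thin lines) by distance from the centre of the window (kb, x axis) at the widest lost region on chromosome 1, the longest lost run on chromosome 12, a gained run on chromosome 2 and the fused region joining most A2780 peaks on chromosome 12. A2780 is drawn in red and shMBD3.232 in green; in the first window A2780 peaks cover 169.4 kb and shMBD3.232 peaks 0.600 kb, while shMBD3.26 peaks cover 89.6 kb.

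The 45 lost regions over 10 kb had a median width of 14200 bp and lay on 13 chromosomes, 10 of them on chromosome 3. For 33 of them, another such region lay within 1 Mb. The other lists had peaks in fewer of them than in regions of this width as a whole. A shMBD3.26 peak was listed in 42 of the 45, or 93.3% (82.1 to 97.7), against 99.6% of all regions over 10 kb, and the shMBD3.26 peaks covered 45.8% of their 737 kb. H3K9ac, another acetylation of histone H3 at active regulatory regions, had an A2780 peak in 33, or 73.3% (59.0 to 84.0), against 93.0%. An A2780cis H3K27ac peak was listed in 15, or 33.3% (21.4 to 47.9), against 79.3%. In CAOV4, a line of another EOC subtype, 3 had a peak, or 6.67% (2.29 to 17.9), against 63.8%. The widest was chr1:102161001-102190400 with 29.4 kb in A2780, and chr1:102303001-102332000 had 29.0 kb. The shMBD3.26 peaks covered 24.2 and 20.0 kb of them, A2780cis peaks 23 and 29 kb, and A2780 H3K9ac peaks 19 and 18.6 kb. The second widest, chr4:27788401-27817600, had 29.2 kb in A2780, 3.80 kb in shMBD3.26, 2.60 kb in A2780 H3K9ac and no A2780cis peak.

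Gained regions over 10 kb numbered 8. Each of them had a shMBD3.26 peak, as did 99.6% of all regions of this width, and these peaks covered 54.6% of their length. By definition A2780 had no H3K27ac peak in them. An A2780 H3K9ac peak was listed in 1 of the 8, against 93.0% of all regions over 10 kb. No A2780cis or CAOV4 H3K27ac peak was listed in any of the 8, against 79.3% and 63.8% of all, though 8 regions leave wide intervals, up to 32.4% for a count of 0. The widest, chr1:169944601-169960200, had 15.6 kb with shMBD3.232 and 5.40 kb with shMBD3.26. At chr14:26124801-26137800 the lengths were 13 and 9 kb, with 2.60 kb of A2780 H3K9ac, and at chr8:109410001-109422600 they were 12.6 and 9.80 kb. The last of these lay among 11 gained regions within 250 kb to each side.

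The 3 narrowed regions with the largest difference in width lay among lost regions. The most narrowed region, chr1:102360401-102389200, had 28.8 kb in A2780 and 0.200 kb with shMBD3.232, with 22.0 kb in shMBD3.26, and 19 of the 20 regions in a window of 250 kb to each side, itself included, were lost. At chr3:147645601-147669400 the length was 23.8 kb in A2780, 0.800 kb with shMBD3.232 and 16.4 kb with shMBD3.26. In its window, 7 of the 8 regions were lost. At chr3:82113201-82138400 the lengths in the same order were 25.2, 3.40 and 18.0 kb, with 12 of 17 regions lost. The most widened region, chr6:18984401-19000400, had 2.40 kb in A2780 and 16 kb with shMBD3.232, with 2.80 kb in shMBD3.26. At chr4:90203801-90234800 the length was 17.8 kb in A2780 and 31.0 kb with shMBD3.232, but 14.6 kb with shMBD3.26. The window around it held 9 lost and 2 gained regions. At chr5:50944201-50960000 the length was 2.20 kb in A2780, 14.8 kb with shMBD3.232 and 14.4 kb with shMBD3.26. There, 7 of the 12 regions in the window were gained.

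The largest fusion, at chr12:90308201-90427800, joined 9 A2780 peaks of 104 kb in all into 1 shMBD3.232 peak of 119.6 kb. In shMBD3.26, 2 peaks covered 116.8 kb there, A2780cis had no peak, and the A2780 H3K9ac list had 12 peaks with 20.0 kb. At chr3:93794201-93861800 and chr11:36891401-36925800, 8 A2780 peaks were joined, with 56.8 kb against 64.0 kb and 22.2 kb against 34.4 kb. The shMBD3.26 list had 4 peaks with 56.6 kb at the first and 2 peaks with 31.6 kb at the second. The largest split was at chr9:14459801-14543000, where an A2780 peak of 83.0 kb stood against 7 shMBD3.232 peaks of 49.4 kb in all. With shMBD3.26, 3 peaks covered 67 kb there. In the window of this split, 17 of the 27 regions were lost. Splits into 5 peaks at chr14:53288401-53360000 and chr14:53383601-53430600 left 57.6 of 71.6 kb and 36.2 of 47.0 kb. With shMBD3.26 these had 3 peaks with 63.4 kb and 4 peaks with 29 kb.

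The other lists had fewer peaks in regions that 1 list alone held. An A2780 H3K9ac peak was found in 42.5% of all regions, in 71.1% (70.3 to 71.8) of shared, 16.5% (15.8 to 17.2) of lost and 11.2% (10.2 to 12.4) of gained regions. Widths differ between these classes, and over 2 kb the shares were 77.9% of shared, 31.9% of lost and 13.4% of gained regions. Narrowed regions held H3K9ac more often, at 62.0% (60.3 to 63.8), than widened regions, at 48.8% (46.2 to 51.4), and split regions, at 89.0% (86.6 to 91.0), more often than fused ones, at 80.6% (77.9 to 83.0). In CAOV4 H3K27ac the order of lost and gained was the other way, with 13.7% (13.1 to 14.4) of lost and 16.8% (15.5 to 18.1) of gained regions, against 36.2% of all. Over 2 kb the intervals overlapped, with 19.3% (17.7 to 20.9) of lost and 21.4% (18.2 to 24.9) of gained regions, against 54.9% of all. The A2780cis H3K27ac list had a peak in 26.1% of lost and 24.7% of gained regions, against 53.5% of all, and the shMBD3.26 list in 22.1% and 24.4%, against 55.6% of all. Over 2 kb these shares were 36.5% (34.6 to 38.5) of lost and 29.0% (25.4 to 32.8) of gained regions in A2780cis, against 75.2% of all, and 41.1% (39.1 to 43.1) and 43.2% (39.2 to 47.3) in shMBD3.26, against 83.1% of all. The A2780 H3K9ac list comes from the same untransduced line whose H3K27ac peaks class the regions, so its shares are tied to that classing. As A2780 is also the reference of A2780cis and shMBD3.26, their shares describe the lists and are no separate check of the changes either.

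**Figure D5:**
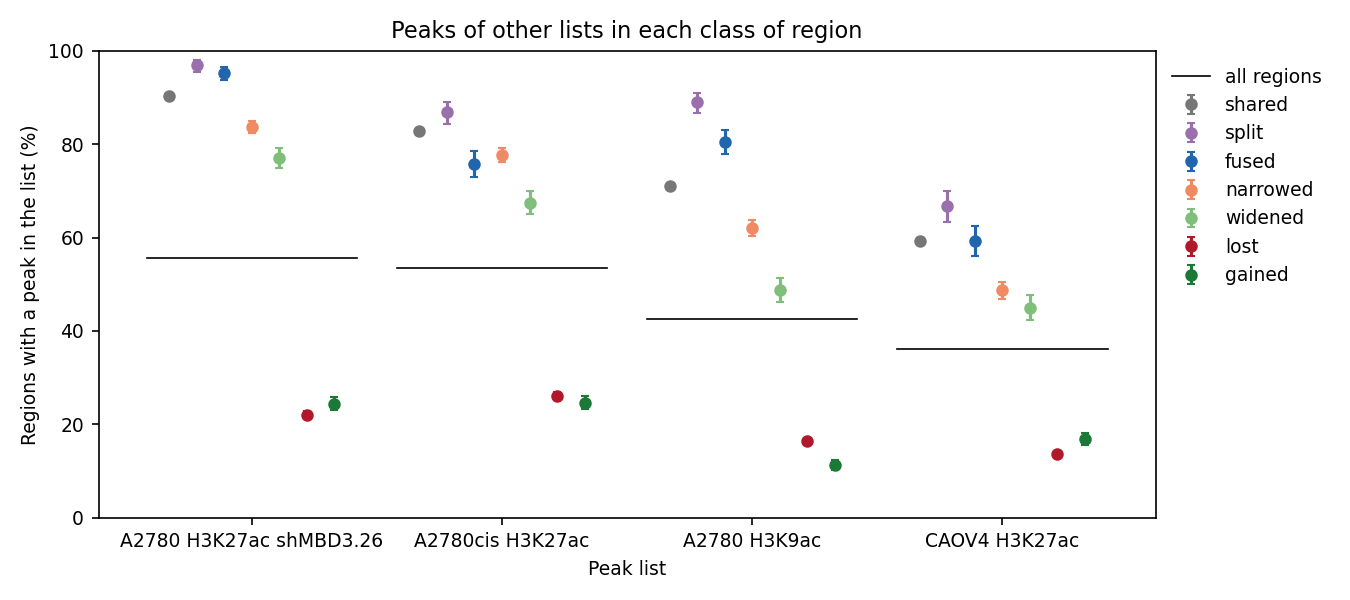
Share of regions of each class (%, y axis) with a peak in each of 4 other lists (x axis), with 95% Wilson intervals as bars and the share over all 29676 regions as a black line. Lost and gained regions lie below the line in each list, and shared, split, fused, narrowed and widened regions above it.

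By the median, gained regions lay nearer than lost regions to acetylation that both lists held. Distances from other positions were not computed, so the part of peak density in these values was not tested. The median distance from a gained region to the nearest shared region was 8200 bp, and 38.7% (37.0 to 40.4) lay within 5 kb and 88.1% within 50 kb. For lost regions the median was 12000 bp, with 31.1% (30.3 to 31.9) within 5 kb and 81.1% within 50 kb.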

How the data were processed

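The reads were aligned by the authors with Bowtie2 and quantile normalized, and MACS2 is the peak caller named in their methods, 1 list per sample, although the layout of the lists is not that of MACS2 alone. The deposited files list peak positions on hg19 (GRCh37) per the submitters' processing notes, which could not be checked here. The deposited score column holds only 0 and was left out. Boundaries lie on a 200 bp grid, with 1 exception in the A2780 list. Peaks of both lists were merged at 1 bp of overlap with Python 3.11.15, numpy 2.4.6 and pandas 2.3.3 (plots: matplotlib 3.10.9). The classing of lost, gained, widened and fused regions was checked on an altered copy of the A2780 list with known changes of these kinds. Narrowed and split regions were not planted in it. Positions are counted from 1. The regions named are the 3 widest gained and lost, the 3 widened and narrowed most in bp, and the 3 fused and split that join most peaks, with the longest runs, the extreme 500 kb intervals and changed regions over 10 kb chosen after their values were seen. The members and lists were chosen with earlier results of these data known. Without a genome or annotation of this build, the genes, sequence features and cell type markers at these regions were not analysed here, nor were the input libraries. The guide sequence is from the study's list of guides.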

Additional observations from a re-analysis of the deposited data

Results flagged for a closer look

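Fused minus split regions had opposite signs with the hairpins. The difference was 150 regions with shMBD3.232, from 931 fused and 781 split regions, and -527 with shMBD3.26, from 612 and 1139. It drew attention because the same measure pointed one way in one knockdown and the other way in the other, against the same A2780 list. The difference between the hairpins was not tested, since each has 1 library. With both lists reduced to the widest peaks, as many as the shorter list held, the values were -157 and -620, so that both had more split than fused regions. With peaks of a list up to 3 kb apart joined first they were -263 and -640, and with partners up to 5 kb apart 1301 and 950.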

How the results depend on the processing

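Of 102 values recomputed under other settings, 70 stayed within 1.5 times (counts) or within their interval (other values), 32 moved further and 0 changed sign. Only the median ratios and the chromosome differences could change sign, and fused minus split was not among the 102. The order of fused and split regions with shMBD3.232 turned under 2 of these settings, as given above. The share of A2780 and of shMBD3.232 peaks without a partner was 44.3% and 18.6% when 50% of the shorter peak had to overlap. With partners up to 5 kb apart, 1530 regions were gained, 7974 lost, 773 widened, 1726 narrowed and 1960 fused (1921 with shMBD3.26), 28.6% and 8.08% of peaks had no partner, the median ratio was 0.900, and the lost share of chromosome 19 minus that of all autosomes was -8.39 points instead of -6.06. Among regions over 2 kb, 576 were gained and 2390 lost, 14.98% and 4.15% of peaks had no partner, and chromosome 19 stood at -2.47 points. With both lists reduced to the widest peaks, as many as the shorter list held, a setting that brings lost and gained regions near balance by construction, 4840 regions were lost, 25.6% and 24.7% of peaks had no partner, the ratio was 0.905 and chromosome 19 stood at -3.74 points. With peaks of a list up to 3 kb apart joined first, 313 regions were fused (197 with shMBD3.26), 39.6% and 14.9% of peaks had no partner and the ratio was 0.880. A width ratio of 2 left 703 widened and 1590 narrowed regions, and a ratio of 5 to 4 gave 2368 and 4519. Over A2780 peaks above 2 kb the median ratio was 0.882. Adding chromosome X moved none of the values beyond these limits.

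No paired analysis was possible because the labels carry no replicate numbers and each condition has 1 library. No replicate was left out for the same reason. The lists hold no read numbers, and narrow peaks near the threshold of the peak caller cannot be told apart from regions without the mark. Which part of the differences belongs to *MBD3* was not tested.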
